A study of Mus musculus with 6 samples.

Results

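The CatSper channel is the calcium channel of the sperm tail, and 10 of the genes that encode its subunits were followed in mouse testis RNA. They were taken by symbol from gene tables of 34144 rows, and all 10 had a row and passed the filter on low counts. Catsper1, Catsper2, Catsper3 and Catsper4 encode the pore. Catsperb, Catsperd, Catsperg1 and Catsperg2 encode auxiliary subunits that cross the membrane and carry large extracellular parts. Catsperz and Efcab9 encode subunits on the cytoplasmic side. Catsper1 and Catsperz lie on mouse chromosome 19, Catsper2 on 2, Catsper3 on 13, Catsper4 on 4, Catsperb on 12, Catsperd on 17, both Catsperg genes on 7 and Efcab9 on 11.

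RNA came from testes of C57Bl/6J mice aged 3 months, with 3 wild-type mice and 3 mice of genotype Nsun7-/-. Nsun7 belongs to a family of RNA methyltransferases, and the title of the study ties it to the transcripts of elongated spermatids and to where the sperm tail forms its longitudinal columns. The labels do not say how the Nsun7-/- allele was made. Each library came from 1 mouse, after removal of the testis capsule and depletion of ribosomal RNA.

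CatSper opens when the inside of the sperm becomes alkaline, and the calcium that enters drives hyperactivated swimming, which sperm need to reach and penetrate the egg. Male mice that lack a pore subunit are infertile. In mouse sperm the channel lies in long rows along the principal piece of the tail. The genes are transcribed in male germ cells, so testis RNA shows their transcripts before the channel is in place.

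The libraries held between 23480448 and 28558865 estimated counts. The 10 genes took between 0.0833% and 0.0966% of them. The targeted gene, Nsun7, stood at 36.6, 35.7 and 37.2 CPM (counts scaled to the effective size of each library) in wild-type mice 1, 2 and 3, and at 18, 17.8 and 25.2 CPM in knockout mice 1, 2 and 3. The genotypes did not overlap for Nsun7, although its row kept counts in the knockout (log2 fold change -0.84, SE 0.15, adjusted p = 0.016, edgeR). Without knockout mouse 2, or without any 1 wild-type mouse, that adjusted p ran from 0.0556 to 0.093. Wild-type mouse 1 and knockout mouse 3 lay at opposite ends of the first principal component, which held 35.5% of the variance and ran in the order of the library names. The noncoding RNA Rmrp, the RNA of a ribonuclease, took 33.3% of TPM (transcript abundance per length, scaled to a fixed total in each library) in wild-type mouse 1 and 11.4% in knockout mouse 3. Levels between genes are given below as TPM within libraries and differences between genotypes as CPM. Markers of the germ cells were present in every library. The summed CPM of 9 pachytene spermatocyte markers ran from 5421 to 5855 in wild type and from 4807 to 5954 in the knockout, and that of 9 round spermatid markers from 778 to 869 and from 774 to 855. For 12 elongating spermatid markers it ran from 8397 to 11021 in wild type and from 7607 to 10465 in the knockout. The median log2 fold changes of these lists were -0.03, 0.02 and -0.18 in the same order.

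Catsperg1 and Catsperg2 are neighbouring paralogs on chromosome 7 that encode the gamma subunit, and how their reads were told apart bears on every value given for them. Their coding sequences of 3453 and 3435 bases (transcripts Catsperg1-212 and Catsperg2-201, GENCODE M21) differed at 122 of 3432 aligned bases, an identity of 96.4%. Both stretches below are 120 bases of coding sequence, written 5′ to 3′, with capitals at the bases where the paralogs differ. The first pair is the most different stretch, at coding positions 1642 to 1761, with 19 differences.
Catsperg1: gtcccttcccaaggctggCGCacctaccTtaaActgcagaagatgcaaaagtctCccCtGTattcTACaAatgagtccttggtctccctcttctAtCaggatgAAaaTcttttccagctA
Catsperg2: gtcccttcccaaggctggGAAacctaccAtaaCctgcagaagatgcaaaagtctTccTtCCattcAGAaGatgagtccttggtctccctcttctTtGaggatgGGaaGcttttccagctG
The second pair lies in an identical run of 341 bases, at coding positions 1945 to 2064, and has 0 differences, so a read that falls inside it fits both genes.
Catsperg1: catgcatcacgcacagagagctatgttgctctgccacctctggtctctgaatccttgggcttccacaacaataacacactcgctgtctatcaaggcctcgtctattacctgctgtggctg
Catsperg2: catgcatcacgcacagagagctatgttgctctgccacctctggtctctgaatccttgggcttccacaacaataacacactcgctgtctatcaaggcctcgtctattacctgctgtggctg

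Over all annotated transcripts, 55.4% of the 31-base words of Catsperg1 and 56.3% of those of Catsperg2 also occurred in another gene, for the most part in the other paralog. Reads made only of such words are divided between the paralogs by estimation, so the split between Catsperg1 and Catsperg2 is uncertain. Catsperz shared 38.3% of its words with Kcnk4, a potassium channel gene that overlaps it on the same strand of chromosome 19. Its main protein-coding transcript, Catsperz-201, shared 45.4%. The Kcnk4 row held 58 to 119 counts per library, against 2495 to 2831 for Catsperz. Both rows come from the same estimation, so they do not show that the split is right, and the values of Catsperz are uncertain too. Catsperb shared 14.6% of its words with other genes, and its single protein-coding transcript shared 21.6%, all with the pseudogene Gm18795, so its values are uncertain as well. Catsper1, Catsper3 and Efcab9 shared no word with another gene. Catsper2 overlaps the protein disulfide isomerase gene Pdia3 on the other strand of chromosome 2, but 0.355% of its words occurred in any other gene on either strand, and none of them in Pdia3.

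In every library Catsperz had the highest TPM of the 10 genes, Catsperg2 the next highest, Catsper3 the ninth and Catsperb the lowest. Catsperz stood at 171, 183 and 201 TPM in wild-type mice 1, 2 and 3, and at 192, 196 and 221 TPM in knockout mice 1, 2 and 3. Its product keeps the rows of channels unbroken, as known from mouse sperm that lack it. The mean over 6 libraries was 194 TPM, and 97.1% of tested genes lay below it. Catsperb, which encodes the beta subunit, stood at 3.6, 3.74 and 3.22 TPM in wild type and at 2.53, 3.28 and 5.17 TPM in the knockout, with a mean of 3.59. Only 35.9% of tested genes lay below that mean, whereas each of the other 9 genes lay above 75.9% of them or more.

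Between these ends the means ran from 91.9 down to 30.3 TPM. Catsperg2 averaged 91.9 TPM, Catsperd 66.4, Catsper2 65.6, Catsperg1 53.8, Efcab9 53.1, Catsper4 46, Catsper1 45.2 and Catsper3 30.3 TPM. Of the 9 pairs of neighbours in this order, 6 stood in the same order in all 6 libraries (two-sided exact sign-flip permutation test over libraries, p = 0.03125, the smallest that 6 libraries allow, adjusted p = 0.0469 over the 9 pairs). The pairs and their order came from the means over the same 6 libraries, so these p-values are no independent support for the order. The largest step was from Catsper3 to Catsperb, a mean ratio of 8.52, and the next was from Catsperz to Catsperg2, a ratio of 2.13. The other 3 pairs could not be ordered beyond their spread: Catsperd and Catsper2, Catsperg1 and Efcab9, and Catsper4 and Catsper1 each stood in the given order in 3 of 6 libraries.

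**Figure D1:**
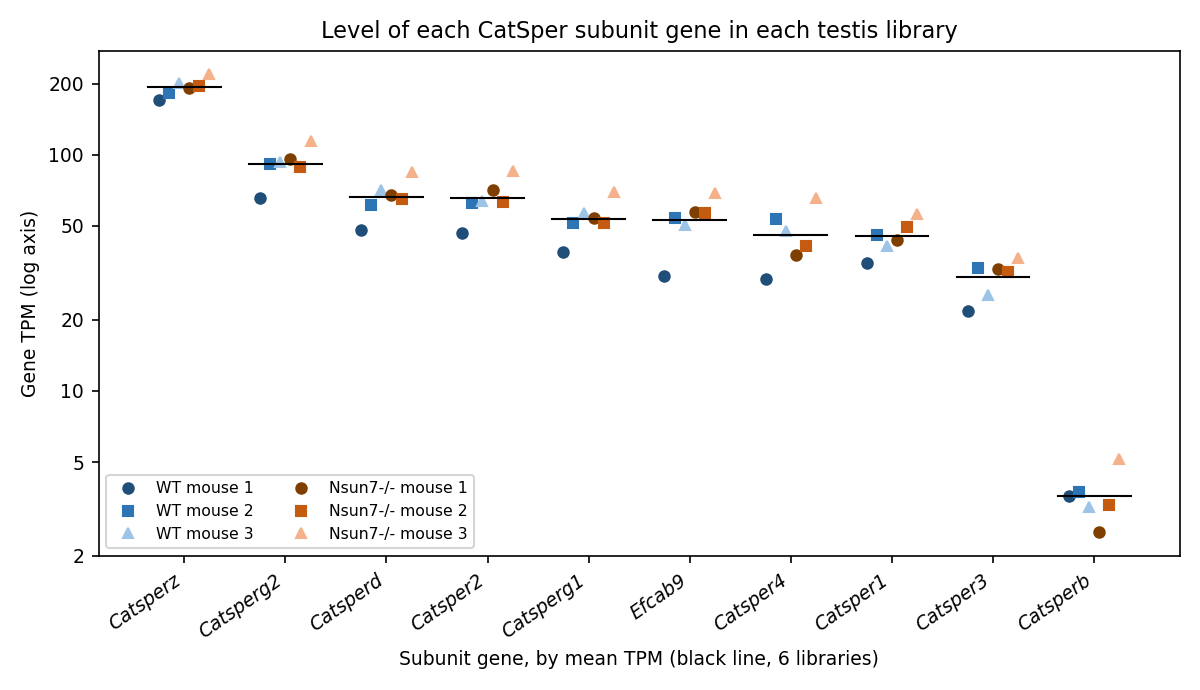
Gene TPM on a log axis for the 10 CatSper subunit genes in each of the 6 libraries, ordered by the mean over libraries (black lines). Catsperz lies between 171 and 221 TPM, Catsperb between 2.53 and 5.17 TPM, and the other 8 genes between 21.9 and 115 TPM, with wild-type mouse 1 lowest for 9 of 10 genes and knockout mouse 3 highest for all 10.

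The pore genes were not equally abundant per length. CATSPER1 to CATSPER4 form the pore as a heterotetramer, with 1 copy of each. Catsper2 stood at 46.9, 62.9 and 63.6 TPM in wild type and at 70.9, 63.5 and 85.6 TPM in the knockout. Catsper3 stood at 21.9, 33.3 and 25.5 TPM in wild type and at 32.7, 32 and 36.5 TPM in the knockout. The ratio of Catsper2 to Catsper3 ran from 1.89 to 2.49 over the 6 libraries and was above 1 in each. Catsper1 (34.9 to 56.2 TPM) and Catsper4 (29.8 to 65.8 TPM) changed places between libraries, with a ratio of Catsper1 to Catsper4 from 0.853 to 1.21.

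Among the auxiliary genes, the ratio of Catsperg2 to Catsperg1 stayed between 1.64 and 1.79 in all 6 libraries, a split that rests on estimation. Catsperd encodes the delta subunit, without which CATSPER1 does not persist in mouse sperm, and stood between 48.3 and 84.4 TPM. Its ratio to Catsperb ran from 13.4 to 26.9. The products of Catsperz and Efcab9 bind each other, and EFCAB9 is the calcium sensor of the pair. The ratio of Catsperz to Efcab9 was 5.59 in wild-type mouse 1 and between 3.19 and 3.97 in the other 5 libraries. Efcab9 stood at 30.7, 54.1 and 50.6 TPM in wild type and at 57.2, 56.9 and 69.3 TPM in the knockout, lowest in wild-type mouse 1. On CPM that library was also the lowest, but closer to the next, at 21 against 23.5. For none of the 5 ratios examined was a difference between genotypes found (exact permutation tests, p = 0.2 to 1, each adjusted p = 1; 3 against 3 cannot go below 0.1).

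As a share of the summed TPM of the 10 genes, which does not move with the library's scale, the pore genes held 27.1%, 30.6% and 27.2% in wild type and 28.2%, 28.7% and 30.2% in the knockout. The means were 28.3% ± 1.98 and 29% ± 1.02 (SD, n = 3 each; two-sided exact permutation test, p = 0.6), and the genotypes overlapped. The auxiliary genes held 32.9% ± 1.34 and 33.3% ± 0.887 (exact p = 0.8, n = 3 each). The cytoplasmic pair held 38.8% ± 2.09 and 37.7% ± 1.59 (exact p = 0.5, n = 3 each). Of the single genes, Efcab9 was the one whose shares did not overlap, at 6.24%, 8.45% and 7.73% in wild type and 8.73%, 8.78% and 8.57% in the knockout. Its exact p of 0.1 is the smallest that 3 against 3 allow, and the adjusted value over the 10 genes was 0.778.

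No subunit gene passed the test for a difference between the genotypes. By edgeR 0 of 10 passed an adjusted p of 0.05, where 0.567% of 21002 tested genes did; 0 of 10 had an unadjusted p below 0.05, where 8.39% of all did; and for 0 of 10 did the CPM of the genotypes stand apart, where 14.3% of all did. DESeq2 also called 0 of 10, against 0.829% of all genes it tested. The median log2 fold change was -0.02 over the 10 genes and 0.01 over all genes tested, and the median of its absolute size was 0.05 and 0.16. Over the 10713 tested genes with a mean CPM within the range of the subunit genes, the median absolute size was 0.13. The lower end of that range was set by Catsperb (mean 8.16 CPM), and the next lowest subunit gene was Efcab9 (25.5 CPM). Leaving out Catsperb, the fold changes of the other 9 genes ran from -0.19 to 0.12 on the log2 scale, and their 95% intervals reached no lower than 0.734-fold and no higher than 1.34-fold. Without wild-type mouse 1 and knockout mouse 3 together 0 of 10 passed as well, with a median log2 fold change of -0.05. In RNA of whole testis, fewer cells of a type and less RNA per cell cannot be told apart.

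Among the pore genes, Catsper1 stood at 79.7, 83.2 and 65.6 CPM in wild-type mice 1, 2 and 3 and at 74, 77.6 and 74 CPM in knockout mice 1, 2 and 3. The 3 knockout values lay inside the wild-type range (log2 fold change -0.02, SE 0.12, edgeR adjusted p = 0.971). Catsper2 stood at 105, 113 and 100.3 CPM in wild type and at 122, 96.9 and 112 CPM in the knockout, which held both the highest and the lowest library (0.06, SE 0.12, edgeR adjusted p = 0.899). Catsper3 stood at 29.4, 35 and 23.6 CPM and at 32, 28.7 and 27.9 CPM (0.01, SE 0.15, edgeR adjusted p = 0.989). Here the wild-type libraries spanned the wider range and enclosed the knockout. Catsper4 stood at 39, 50.1 and 42.4 CPM and at 42.4, 43.2 and 47.2 CPM, again inside the wild-type range (0.01, SE 0.13, edgeR adjusted p = 0.982).

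Among the auxiliary genes, Catsperd was the steadiest, with 109.9, 113 and 115 CPM in wild type and 115, 105 and 111 CPM in the knockout. Its coefficient of variation over the 6 libraries was 3.36% (log2 fold change -0.03, SE 0.11, edgeR adjusted p = 0.946). The median coefficient was 15.4% over all tested genes and 11.6% over those with a mean CPM within the range of the subunit genes. Catsperg1 stood at 137, 143 and 134 CPM and at 144, 118 and 134 CPM (-0.07, SE 0.12, edgeR adjusted p = 0.873). Catsperg2 stood at 263, 290.4 and 262 CPM and at 286, 240.2 and 259 CPM (-0.05, SE 0.12, edgeR adjusted p = 0.905). Both paralogs were lowest in knockout mouse 2. With the counts of the paralogs summed, so that their split no longer mattered, the log2 fold change was -0.06 (edgeR adjusted p = 0.899).

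Catsperb varied most. It stood at 11.4, 9.54 and 7.21 CPM in wild type and at 5.78, 6.04 and 9.03 CPM in the knockout, from 143 to 279 counts per library. Knockout mice 1 and 2 were the lowest libraries, whereas knockout mouse 3 lay above wild-type mouse 3, so the genotypes overlapped. The log2 fold change was -0.42 (SE 0.21, 95% interval -0.87 to 0.02, unadjusted p = 0.0611, edgeR adjusted p = 0.61), and the interval covered ratios of knockout to wild type from 0.547 to 1.02. Without knockout mouse 3 it was -0.67, and without wild-type mouse 1 it was -0.28; neither passed the threshold. The coefficient of variation of Catsperb was 26.9%.

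Of the cytoplasmic pair, Catsperz stood at 124, 103 and 99.2 CPM in wild type and at 101, 94.9 and 91.6 CPM in the knockout (log2 fold change -0.19, SE 0.12, edgeR adjusted p = 0.671). The highest library was wild-type mouse 1, and knockout mouse 1 lay above wild-type mouse 3. Efcab9 stood at 21, 28.7 and 23.5 CPM and at 28.1, 25.4 and 26.4 CPM (0.12, SE 0.14, edgeR adjusted p = 0.785), with its lowest value in wild-type mouse 1, where Catsperz had its highest.

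**Figure D2:**
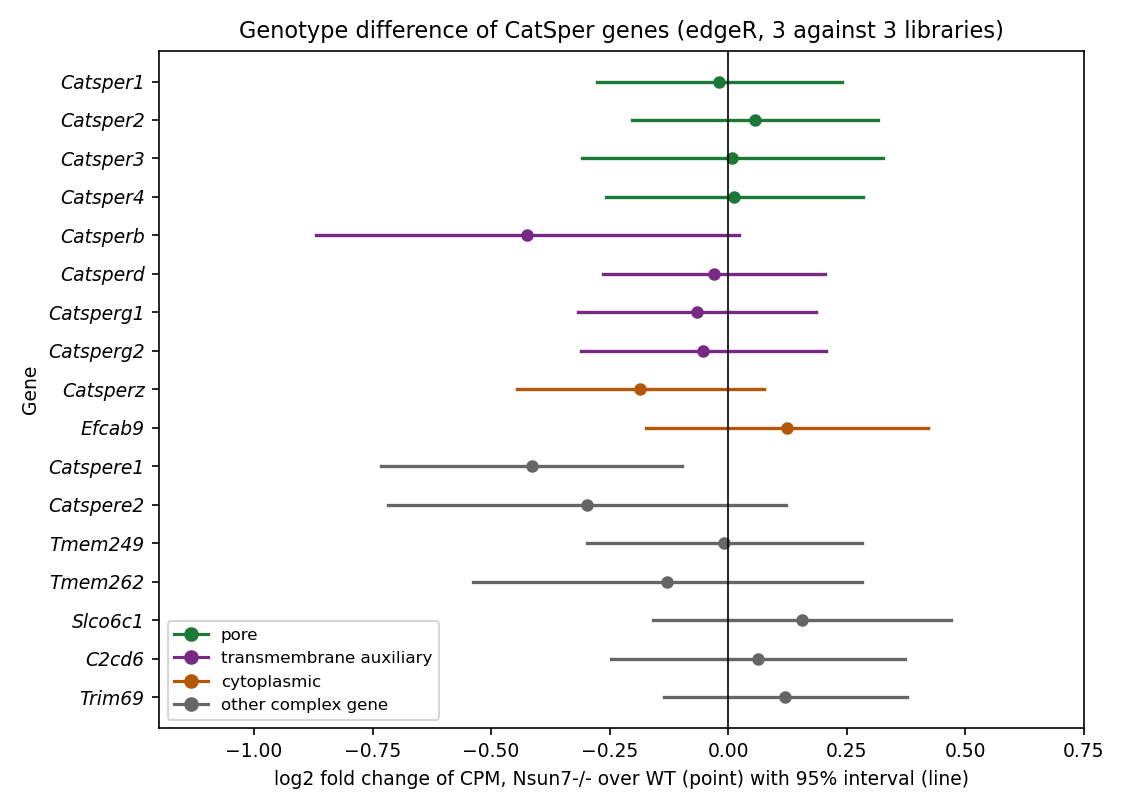
Log2 fold change of CPM, Nsun7-/- over wild type, with 95% intervals from edgeR for the 10 subunit genes and 7 other genes of the complex, coloured by role. The intervals of all 10 subunit genes include 0, and that of Catspere1 (-0.73 to -0.10) does not, although its adjusted p was 0.449.

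Directions were different in the deposited TPM table, whose scale moves with the share of Rmrp. On log2 TPM with a pseudocount of 1 all 10 genes had fold changes above 0 and a median of 0.27, while the median of all genes also stood at 0.24. Wild-type mouse 1, with the largest share of Rmrp, had the lowest TPM for 9 of 10 subunit genes, and knockout mouse 3, with the smallest, had the highest for all 10. Between these ends the subunit values did not follow that share throughout. Knockout mouse 2, with 12.9% Rmrp, had a summed TPM of 648 for the 10 genes. Wild-type mouse 3 (15.7%) and knockout mouse 1 (17.5%) each had 655. The part of Rmrp in these directions was not tested. On CPM knockout mouse 3 was highest for 0 of 10. None of the 10 passed on the TPM scale either (limma, lowest adjusted p = 0.395), and after centring each library on its median gene the median of the 10 was -0.02.

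The subunit genes moved little from library to library and not all together. The median centred profile of the 10 genes ranged from -0.09 in knockout mouse 2 to 0.13 in wild-type mouse 2 on the log2 CPM scale. Catsperg2 followed it most closely, with a root mean square difference of 0.0378, and Catsperb least, with 0.338. Each of the 10 genes helped to set this median, so subunit genes and outside genes are not measured against it on equal terms. Outside the set, the genes of at least 1 CPM whose profile over the 6 libraries lay nearest to that median were Kbtbd4 (0.0124), Alkbh1 (0.0206), Ldlrad3 (0.0248), Eif2b1 (0.03) and Insr (0.031), against a median difference of 0.197 over the 17893 genes compared. These 5 are the nearest of many on 6 libraries that differ little, so the likeness is given as a description.

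**Figure D3:**
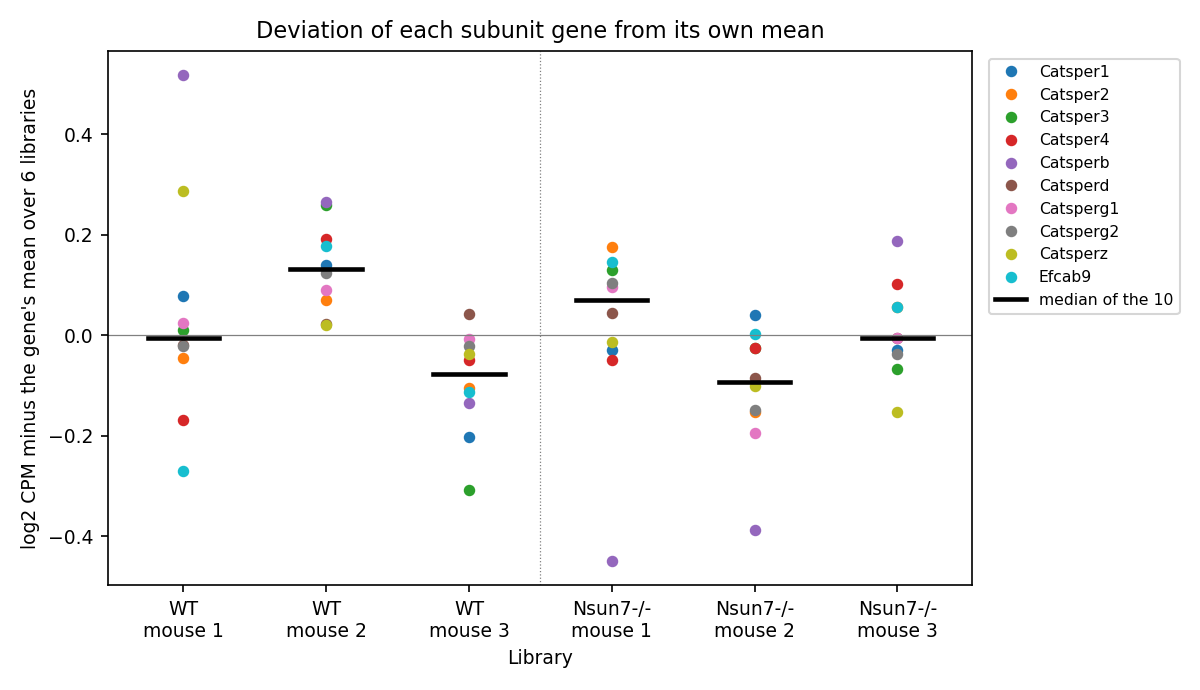
Log2 CPM of each subunit gene minus its own mean over the 6 libraries, one column of points per library, with the median of the 10 genes as a black bar. The medians lie between -0.09 and 0.13, with Catsperb at 0.52 in wild-type mouse 1 and at -0.45 in knockout mouse 1, and with Catsperz at 0.29 and Efcab9 at -0.27 in wild-type mouse 1.

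The gene values sum over annotated transcripts that differ in class. The 10 genes had 54 transcripts, of which 3 had no count in any library. For Catsper1, Catsper3 and Efcab9 all TPM came from transcripts annotated as protein coding, and for Catsper2, Catsperz and Catsperd means of 90.8%, 88.2% and 80.7% did. Catsperg1 was different. Only 22.5%, 26.2% and 21.2% of its TPM in wild type and 36.1%, 26.4% and 31.5% in the knockout came from protein-coding transcripts, while a mean of 60% came from 7 transcripts annotated with a retained intron. Its paralog Catsperg2 drew a mean of 65.2% from protein-coding transcripts, 18.4% from transcripts annotated for nonsense-mediated decay and 14.9% from those with a retained intron.

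Catsperb drew between 11.6% and 23.6% of its TPM from its single protein-coding transcript, Catsperb-201, which had 28 to 56.1 estimated counts per library. A mean of 80.8% came from a pair of transcripts annotated for nonsense-mediated decay, Catsperb-203 and Catsperb-204. For Catsper4 a noncoding transcript of 362 bases held between 14.5% and 38.1% of the TPM.

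**Figure D4:**
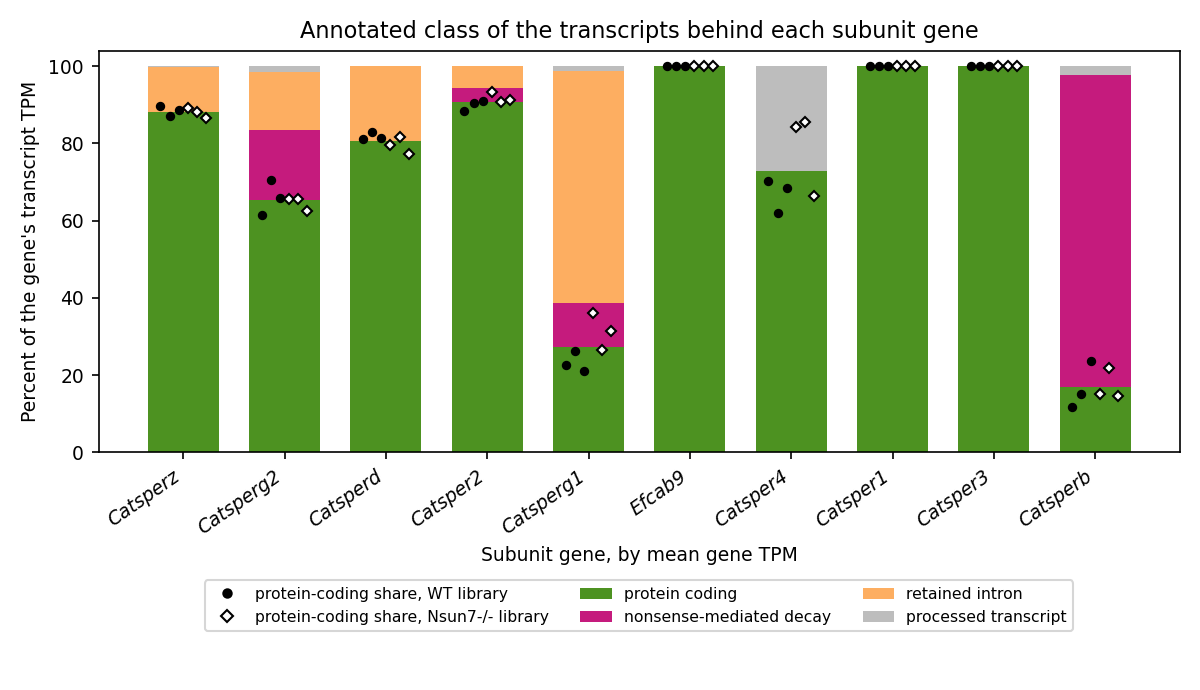
Percent of each subunit gene's transcript TPM by annotated transcript class (stacked bars, mean over 6 libraries), with the protein-coding percent in each wild-type library (black circles) and each Nsun7-/- library (white diamonds). The protein-coding part is 100% for Efcab9, Catsper1 and Catsper3, 27.3% for Catsperg1 and 16.9% for Catsperb.

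Counting protein-coding transcripts alone moved 1 gene far in the order. Catsperg1 went from the fifth place to the ninth, with a mean of 14.9 TPM, and Catsperb stayed last with 0.598 TPM. Catsperz stayed first with 171 TPM, and Catsperg2 (60 TPM) and Catsper2 (59.6 TPM) followed, each above the other in 3 of 6 libraries. On this scale 4 of 9 neighbour pairs, again taken from the means over the same libraries, were ordered alike in all 6 libraries (exact sign-flip permutation test, adjusted p = 0.0703). Among these was Catsper1 (45.2 TPM) above Catsper4 (32.9 TPM), a pair that changed places between libraries on gene TPM. With counts summed over protein-coding transcripts 0 of 10 genes passed by edgeR, where 0.323% of all genes with such transcripts did.

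The genotypes were also compared transcript by transcript. Of the 54 transcripts 42 passed the filter and 0 passed an adjusted p of 0.05, where 0.0272% of 58773 tested transcripts did. An unadjusted p below 0.05 was found for 2 of the 42, which is 4.76%, the same share as the 4.76% over all transcripts. One was Catsperg1-203, annotated with a retained intron, at 30.4, 25.3 and 20.4 CPM in wild type and at 16, 16.3 and 11.4 CPM in the knockout. All 3 knockout libraries lay below all 3 wild-type ones (log2 fold change -0.80, SE 0.21, edgeR adjusted p = 0.826). The other was Catsperz-204, also annotated with a retained intron, at 11.2, 10.7 and 6.84 CPM and at 6.96, 6.01 and 5.73 CPM (-0.62, SE 0.23, edgeR adjusted p = 0.932), where the genotypes overlapped. With an unadjusted edgeR p above 0.05, the genotypes also stood apart for other subunit transcripts, in both directions. A Catsperg1 transcript annotated for nonsense-mediated decay (log2 fold change -0.41) and a protein-coding one of Catsperz (-0.88) lay lower in the knockout. Protein-coding transcripts of Catsperg1 (0.55) and Catsperg2 (0.33) lay higher. How often transcripts stood apart over all those tested is not given here. For the protein-coding transcript with the largest share of TPM in each of the 10 genes, log2 fold changes ran from -0.25 (Catsperb-201) to 0.30 (Catsperg1-212), with edgeR adjusted p-values from 0.932 to 0.997.

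The protein-coding share of Catsperg1 did not overlap between the genotypes, with means of 23.3% ± 2.58 and 31.3% ± 4.86 (SD, n = 3 each). The exact permutation p of 0.1 is the smallest the design allows, and adjusted over the 10 genes it was 0.75. That adjustment took in Catsper1, Catsper3 and Efcab9, whose share was 100% in every library and could not differ. The estimates behind the Catsperg1 share are unstable, since Catsperg1-201 had 259, 3.69 and 147 estimated counts in wild type and 436, 0.00257 and 260.3 in the knockout.

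Of 7 further genes of the complex 0 passed by edgeR and 0 by DESeq2, with a median log2 fold change of -0.01. An unadjusted edgeR p below 0.05 was found for 1 of the 7, where 8.39% of all tested genes had one. That gene was Catspere1, of the epsilon subunit, another auxiliary subunit with a large extracellular part. It stood at 27.9, 33 and 29.6 CPM in wild type and at 24.4, 18 and 25.5 CPM in the knockout, without overlap (log2 fold change -0.41, SE 0.15, unadjusted p = 0.0142, edgeR adjusted p = 0.449). The CPM of the genotypes stood apart for 1 of the 7 genes, where they did for 14.3% of all tested genes. GENCODE M21 annotates Catspere1 as an unprocessed pseudogene, and it shared 36.7% of its 31-base words with Catspere2, so the split between these paralogs is uncertain too. Catspere2 stood at 18.9, 26 and 26.5 CPM and at 15.7, 16.6 and 25.7 CPM, with overlap (-0.30, SE 0.19, edgeR adjusted p = 0.671). Without wild-type mouse 1 and knockout mouse 3 its log2 fold change was -0.70 and its adjusted p 0.0314.

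The other genes of the complex had smaller fold changes. C2cd6, whose product helps bring the channel to the tail in mouse, stood at 86.1, 74.1 and 69.4 CPM and at 70.9, 70.9 and 97.8 CPM (log2 fold change 0.06, edgeR adjusted p = 0.907). The log2 fold changes of Tmem249 (-0.01), Tmem262 (-0.13) and Slco6c1 (0.16), which encode further membrane proteins of the complex, and of the ubiquitin ligase gene Trim69 (0.12) had adjusted p-values from 0.752 to 0.989. Per length Trim69 stood between 33.9 and 78.5 TPM and C2cd6 between 30.3 and 85.9 TPM, overlapping the range of the pore genes, and Catspere1 between 7.11 and 11.8 TPM, above Catsperb.

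Other genes of sperm calcium signalling were read from lists. Of 16 tested genes for ion transport and signalling in the tail 0 passed by edgeR and 0 by DESeq2, 14 had fold changes above 0, where 52.5% of all tested genes did, and the median was 0.13; 2 had an unadjusted p below 0.05, where 8.39% of all did. These were Adcy10, the soluble adenylyl cyclase (157 ± 18.4 against 219 ± 52.9 CPM, SD, n = 3 each, log2 fold change 0.48, edgeR adjusted p = 0.382), and Abhd2, a lipid hydrolase that acts in the progesterone response of human sperm (273 ± 12.6 against 337 ± 45.4 CPM, 0.31, edgeR adjusted p = 0.553). Of 9 tested genes for the pores of other voltage-gated calcium channels 0 passed by edgeR and 0 by DESeq2, 3 had an unadjusted p below 0.05, against the same 8.39%, and the median was -0.16. Those of smallest p were Cacna1i (15.1 ± 1.32 against 11.4 ± 0.278 CPM, -0.40, edgeR adjusted p = 0.405) and Cacna1c (21.5 ± 0.483 against 16.6 ± 1.51 CPM, -0.37, edgeR adjusted p = 0.426).

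Markers of testis cell types were read beside the subunits. None of 9 pachytene spermatocyte, 9 round spermatid, 12 elongating spermatid, 8 spermatogonial, 8 Sertoli cell, 6 peritubular myoid or 7 macrophage markers passed by edgeR or by DESeq2. In the same order, 0, 1, 3, 3, 1, 3 and 0 of them had an unadjusted edgeR p below 0.05, where 8.39% of all tested genes did. Fold changes were above 0 for 3, 5, 4, 4, 2, 0 and 7 of them, where 52.5% of all tested genes were. The medians ran from -0.31 (myoid) to 0.24 (macrophage) on the log2 scale. Of smallest p were Pgk2 (0.51) and Piwil1 (-0.21) for spermatocytes, Spaca1 (0.33) and Izumo1 (0.19) for round spermatids, Prm3 (-0.53) and Tnp2 (-0.39) for elongating spermatids, Stra8 (-0.46) and Gfra1 (0.52) for spermatogonia, Amh (-0.44) for Sertoli cells, Des (-0.39) and Tagln (-0.35) for myoid cells and Mrc1 (0.24) and Lyz2 (0.73) for macrophages, all as log2 fold changes, with edgeR adjusted p-values from 0.325 to 0.694. Of 8 Leydig cell markers 2 rose by edgeR, where 0.233% of all tested genes did, Hsd3b1 (1.17, edgeR adjusted p = 0.00345) and Hsd17b3 (0.80, edgeR adjusted p = 0.0182), both enzymes of steroid hormone synthesis, and the median was 0.70. The call of Hsd17b3 was lost without wild-type mouse 1, wild-type mouse 2 or knockout mouse 2 (edgeR adjusted p = 0.143, 0.0853 and 0.0928). DESeq2 called 3 of the 8, where it called 0.829% of all genes, with the hormone receptor gene Lhcgr as the third. The summed CPM of the Leydig markers ran from 1762 to 2900.1 in wild type and from 2222 to 4958 in the knockout. Its part in the subunit values was not tested.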

How the data were processed

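Total RNA of decapsulated testes was depleted of ribosomal and globin RNA before library preparation, per the labels' protocols, which do not state strandedness. The submitters' processing notes name kallisto 0.50.1 and mm39. Which annotation release, strand setting and rule for summing transcripts to genes were used is not stated in the labels or headers. Deposited by the authors were estimated counts and TPM per transcript (126126 rows, per the file headers), and estimated counts as whole numbers and TPM for 34144 gene symbols. TPM has a fixed total per library, so 1 abundant RNA lowers every other value.

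The members and all lists were chosen with earlier results of these data known. EdgeR 4.0.16 in R 4.3.3 was run on the gene counts and on the transcript estimates after rounding: TMM scaling, filterByExpr (minimum count 10, minimum total 15), robust quasi-likelihood test of genotype alone, and Benjamini-Hochberg adjustment over all 21002 genes or 58773 transcripts tested, with a threshold of 0.05. The biological coefficient of variation was 14.9%. SEs are the log2 fold change over the square root of F. Shares, ratios and order were tested by exact permutation (scipy 1.17.1) over libraries, each from 1 mouse. Depth is given in the report as counts, and its intervals rest on the spread between mice. DESeq2 1.42.0 and limma 3.58.1 (log2 TPM with pseudocounts of 1 and 0.1) were alternatives, beside other scalings and filters, libraries left out, a replicate block, summed gamma paralogs and, added after seeing the data, protein-coding transcripts only. The edgeR test was checked on simulated counts, and the exact tests on small sets of known answer. Apart from random scatter, the simulated libraries differed only in depth and in the genes set to change. The check therefore does not give the power on these data.

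The genes named are the 10 subunits in every library, Nsun7, Rmrp, all 7 further genes of the complex, the 2 of smallest p in each other list (1 of these is not reported here), and the 5 genes nearest to the subunits' median profile. Kcnk4, Gm18795, Pdia3, Lhcgr and the named transcripts fall outside that rule and were chosen after their values were seen. GENCODE M21 annotates GRCm38, not the authors' build, so it served for names, classes, overlaps and transcript sequences only, and no genome coordinates are printed. All 54 subunit transcripts had the same length in it as in the deposited tables. Shared words of 31 bases, kallisto's default length, were counted on its transcripts.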

Additional observations from a re-analysis of the deposited data

How the results depend on the processing

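The number of subunit genes that passed stayed at 0 under all 18 alternatives, and that of subunit transcripts at 0 under all 9. The pore share differed between genotypes by 0.74 percentage points, and by 0.16 to 1.88 with 1 library left out. The count of all genes that passed was 119, and it was 180 with no low-count filter, 203 with DESeq2, 61 and 68 on log2 TPM with pseudocounts of 1 and 0.1, 63 on centred log2 TPM, and 52 with protein-coding transcripts only. With 1 library left out it ran from 67 to 166: 67 when wild-type mouse 1 was out, 78 for mouse 2 and 78 for mouse 3 of that genotype. For the mouse number as replicate block it was 331, with 0 subunit genes, and Pgk2 passed (edgeR adjusted p = 0.012). The numbers were not treated as pairs, since deviations of same-numbered mice correlated at 0.177, -0.00476 and 0.199 and neither mouse 2 correlated best with its own number. Fold changes of all subunit genes except Efcab9 changed sign under some alternative, none past the threshold. On log2 TPM with pseudocounts of 1 and 0.1, where the median of all genes was 0.24 and 0.30, Catsper1 was at 0.29 and 0.29, Catsperd 0.27 and 0.27, Catsperg1 0.25 and 0.26, Catsperg2 0.27 and 0.27, Catsperz 0.13 and 0.13, Catspere2 0.16 and 0.17, Tmem249 0.31 and 0.32, Tmem262 0.21 and 0.22, Cacna1i 0.12 and 0.17, Cacna1c 0.087 and 0.10 and Piwil1 0.12 and 0.12, with Catsperb at 0.0044 under the first. Centred log2 TPM gave Catsper1 0.00098, Catsper4 -0.15 and Tmem249 0.024. RLE scaling gave Catsper3 -7.9e-05, and DESeq2 gave Catsper3 -0.0055 and Catsper4 -0.0038. Protein-coding transcripts alone gave Catsperg1 0.38, Catspere2 0.74 and Tmem249 0.14. Without wild-type mouse 1 and knockout mouse 3 the values were 0.027 for Catsper1, -0.11 for Catsper4, 0.074 for Tmem249, -0.017 for C2cd6 and -0.018 for Trim69. With 1 library left out the ranges were -0.12 to 0.042 for Catsper1, -0.030 to 0.14 for Catsper2, -0.13 to 0.15 for Catsper3, -0.075 to 0.11 for Catsper4, -0.070 to 0.0034 for Catsperd, -0.14 to 0.0088 for Catsperg1, -0.13 to 0.0049 for Catsperg2, -0.087 to 0.089 for Tmem249 and -0.11 to 0.14 for C2cd6. The cause of these changes was not tested. The fold change of Nsun7 ran from -1.03 to -0.46 over the alternatives and missed the threshold in 7 of them, on each TPM scale and without each wild-type mouse or knockout mouse 2. Catsperb, with 143 to 279 counts per library, has the widest interval of the subunits, and at 3 mice a genotype exact tests cannot go below 0.1.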
